A study of Mus musculus with 18 samples.

Results

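Circular RNAs (circRNAs) of long genomic span were taken as those whose back-splice ends lie at least as far apart on the genome as the median of all circRNAs listed for these livers. The span was counted as the end minus the start plus 1, and its median over the 474 listed circRNAs was 4454 bp. This choice gave 237 long circRNAs of 474 and used position only, with no expression value. The other 237 are called short here.

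A circRNA forms by back-splicing: the donor site that closes an exon joins an acceptor site that lies ahead of it in the transcript, and the RNA becomes a ring. Introns inside the ring are usually removed, so the span on the genome says how much DNA lies between the ends and not how long the RNA is. Long introns that flank the ring, and complementary repeats within them, are known to favour back-splicing, and rings without free ends resist exonucleases. In liver, circRNAs come largely from the genes that hepatocytes transcribe, and carbon tetrachloride (CCl4), a hepatotoxin that hepatocytes activate, is a standard way to scar the rodent liver.

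Livers of 18 male C57BL/6 mice were sequenced, with 6 mice to each of the 3 groups. The labels give the mice as 6 weeks old and the treatment as 12 weeks long, with 15 mice treated in each group of which 6 were sequenced. Control mice received corn oil by intraperitoneal injection at 10 µl per g body weight 2 times a week and double distilled water by mouth daily. Cirrhosis mice received 10% CCl4 in corn oil at the same volume and frequency with the same water. Cirrhosis-PTH mice received the same CCl4 and a Pien Tze Huang preparation (PTH, a Chinese patent medicine and here not parathyroid hormone) at 0.25 mg per g daily in place of the water. All 3 groups share the corn oil. No allele was altered in any of them. The comparisons ask which circRNAs differ with CCl4, and which differ with PTH on top of CCl4. Each library is whole liver of 1 mouse, so p-values below measure the spread between mice.

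Abundance is given as the CPM that the authors deposited. A single back-splice read was worth 0.0343 to 0.370 CPM, and the long circRNAs together drew 373 to 4180 reads per library. Cirrhosis-PTH 6 was the deepest library and Control 1 the shallowest, with 8431 and 794 reads over all listed circRNAs. Cirrhosis 6 had the fewest circRNAs above 0 (223 of 474) although its 2218 reads were not few. Every listed circRNA was above 0 in at least 9 libraries, so the list itself leaves out rarer rings. A ring near this limit can be listed only through the group where it is high. Its p-value and its lack of overlap are then a description and no support for a difference. As a check of the tissue, 6 listed circRNAs had a host among 15 hepatocyte marker genes, and the 3 of them with a long span (Ces1c, Cyp2c70 and Cyp3a25) summed to more than 0 CPM in every library, from 0.224 to 5.26 CPM. No long circRNA came from the marker lists of macrophages, stellate cells, liver endothelial cells, cholangiocytes or erythroid cells, and 1 (Ikzf1) came from the lymphocyte list. The macrophage list did have 3 listed circRNAs, all of them short. In whole liver, fewer cells of a type and less RNA per cell cannot be told apart.

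The sequence that identifies a circRNA is its back-splice junction. The junctions shown are those of 4 coding rings among the 8 of smallest p in a comparison (the shorter Rasa2 ring, Eed, Msrb3, Ascc3), of 2 abundant rings (Gramd1c, Bckdhb), and of pairs that share an end at hosts where the longer and the shorter ring differ in level (Rasa2, Rmdn2, Mark3, Mettl9, Man1a). Each line gives the last 25 bases of the donor exon in lower case and the first 25 bases of the acceptor exon in capitals, read 5' to 3' from GENCODE M21 transcripts of GRCm38, with the ring's ends on that build and the host's strand.
Rasa2 exons 2 to 4, chr9:96602713-96611499, minus strand: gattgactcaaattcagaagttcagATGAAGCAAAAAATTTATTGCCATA
Rasa2 exons 2 to 5, chr9:96591950-96611499, minus strand: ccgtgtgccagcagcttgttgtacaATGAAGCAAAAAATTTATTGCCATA
Rmdn2 exons 3 to 5, chr17:79650302-79659473, plus strand: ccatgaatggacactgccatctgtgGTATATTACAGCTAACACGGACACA
Rmdn2 exons 3 to 10, chr17:79650302-79672573, plus strand: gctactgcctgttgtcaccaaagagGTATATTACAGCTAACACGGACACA
Mark3 exons 2 to 3, chr12:111592577-111604564, plus strand: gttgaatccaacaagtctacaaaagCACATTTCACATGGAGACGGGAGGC
Mark3 exons 2 to 5, chr12:111592577-111618383, plus strand: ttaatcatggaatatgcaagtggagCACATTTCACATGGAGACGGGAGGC
Man1a exons 3 to 5, chr10:54014415-54030794, minus strand: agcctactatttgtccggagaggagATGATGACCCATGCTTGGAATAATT
Man1a exons 3 to 6, chr10:53977023-54030794, minus strand: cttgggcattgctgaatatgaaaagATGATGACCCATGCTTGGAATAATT
Mettl9 exons 3 to 4, chr7:121052087-121057399, plus strand: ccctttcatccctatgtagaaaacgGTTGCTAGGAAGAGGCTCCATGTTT
Mettl9 exons 2 to 4, chr7:121047838-121057399, plus strand: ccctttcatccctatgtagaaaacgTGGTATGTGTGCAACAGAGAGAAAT
Eed, chr7:89955531-89962361, minus strand: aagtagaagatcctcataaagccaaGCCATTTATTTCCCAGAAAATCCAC
Msrb3, chr10:120825108-120852092, minus strand: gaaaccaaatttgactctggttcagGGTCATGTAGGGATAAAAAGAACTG
Ascc3, chr10:50748806-50767507, plus strand: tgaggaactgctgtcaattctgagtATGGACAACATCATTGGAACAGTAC
Gramd1c, chr16:44028679-44040158, minus strand: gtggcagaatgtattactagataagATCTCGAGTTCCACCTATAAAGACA
Bckdhb exons 4 to 8, chr9:83988776-84012619, plus strand: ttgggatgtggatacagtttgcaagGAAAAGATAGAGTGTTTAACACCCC

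In the first 4 pairs the rings share the acceptor, so the capitals are the same and the lower-case bases differ. The Mettl9 pair shares the donor, so there the capitals differ. A junction read tells these rings apart, while a read inside a shared exon does not.

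The long circRNAs spanned 4506 to 189347 bp with a median of 10922 bp, and 130 of them spanned at least 10000 bp. Just inside the threshold were Alg6 (4506 bp), Ddi2 (4510 bp) and Pan3 (4536 bp), and just outside were rings of Etv6 (4402 bp), Mob1a (4369 bp) and Chuk (4361 bp). The 8 longest were rings of Mug2 (189347 bp), Atxn1 (104248 bp), Etv6 exons 2 to 3 (71111 bp), Gphn exons 2 to 4 (69082 bp), Hivep1 (67814 bp), Hivep2 (62484 bp), Arid5b (57204 bp) and Man1a exons 3 to 6 (53772 bp). Only 1 end of the Mug2 ring lay on an annotated exon end, and murinoglobulin genes are near-identical copies on 1 chromosome, so its assignment and span are uncertain. Of the others, Atxn1, Etv6 and Hivep2 rings lay in untranslated exons alone.

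Both ends of 218 long circRNAs were exon ends of a single GENCODE M21 transcript. Another 4 had both ends on exon ends of different transcripts of the host, 14 had 1 end on an exon end, and 1 lay in no annotated gene. The 237 came from 212 hosts, and 230 had a protein-coding host. Rings of the 218 held a median of 3 exons (1 to 10), against 2 (1 to 5) in the 217 short circRNAs placed the same way, and 94 against 12 rings held 4 or more exons. A single long circRNA, of the transcription cofactor gene Tcf20, was 1 exon, and this exon of 5772 bp filled its whole span.

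The long span was mostly intron. Exons added up to a median of 348 bp in long and 278 bp in short circRNAs, and made up 3.55% and 19.0% of the span. Among the 218, span had a Spearman correlation of 0.87 with the longest intron inside the ring and of 0.12 with the exonic length, which describes these circRNAs and shares the span between its points. The introns just outside the ring were also longer than in short circRNAs, with medians of 18577.5 and 5237 bp upstream and 15434.5 and 4993 bp downstream. The host genes were longer too (median 112852.5 and 60743.5 bp). The ring began at exon 2 of the host transcript in 107 long circRNAs (49.1%) and in 61 short ones (28.1%). In 37 long and 19 short circRNAs the exons held 5' untranslated and coding sequence. Coding sequence alone made up 170 long and 191 short circRNAs, and the exonic length was a multiple of 3 in 37.1% and 35.1% of these.

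**Figure D1:**
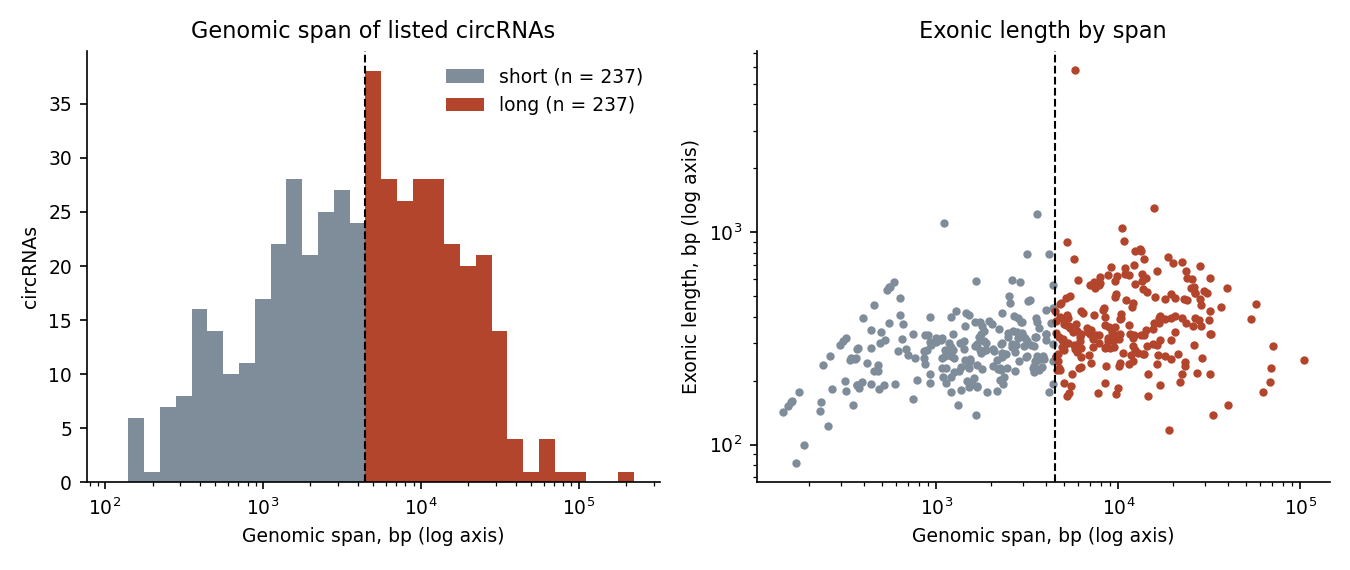
Left, number of listed circRNAs by genomic span (log axis, bp), with the 237 short circRNAs in grey, the 237 long ones in red and the median of 4454 bp as a dashed line. Right, exonic length against span (both log axes, bp) for the circRNAs placed in 1 transcript. Span runs over a range of several orders of magnitude while most exonic lengths stay between 100 and 1000 bp, and the point at 5772 bp is the single exon of Tcf20.

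The last exonic base before the back-splice was G in 81.2% of the 218 long and 79.7% of the 217 short circRNAs, which is the usual last base of an exon. The first base after it was G in 44.0% of the long and 49.8% of the short ones. The GC content of the joined exons had a median of 44.97% (32.9% to 61.0%) in long and 47.2% (31.0% to 66.5%) in short circRNAs. These shares describe the rings, and their differences were not tested.

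Long circRNAs were about as abundant as short ones. Their mean over the 18 libraries had a median of 0.350 CPM against 0.396 CPM, and 29 long and 34 short circRNAs reached 1 CPM. The long ones held 50.9% ± 2.76 (SD, n = 6) of the summed CPM of all listed circRNAs in Control livers, 50.5% ± 2.26 (n = 6) in Cirrhosis and 50.7% ± 2.45 (n = 6) in Cirrhosis-PTH. Single libraries lay between 47.0% and 55.2%, so the groups overlapped and differed by less than their spread. Span and mean CPM had a Spearman correlation of -0.08 over the 474 circRNAs and -0.03 over the 237 long ones.

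Ube3a, the gene of a ubiquitin ligase, gave the most abundant long circRNA. Its level was 1.73, 5.71 and 8.58 CPM (lowest, median and highest of 6 libraries) in Control, 4.35, 6.56 and 10.9 CPM in Cirrhosis and 2.68, 8.89 and 13.0 CPM in Cirrhosis-PTH. The 3 groups overlapped widely. Almost level with it was the ring of exons 3 to 5 of Rmdn2, a regulator of microtubule dynamics, with 3.65, 6.40 and 12.7 CPM in Control, 3.75, 8.54 and 12.3 CPM in Cirrhosis, and 1.04, 5.10 and 8.58 CPM in Cirrhosis-PTH. Gramd1c, which encodes a sterol-binding membrane protein, had 2.88, 4.43 and 6.01 CPM in Control, 2.86, 5.20 and 9.41 CPM in Cirrhosis, and 2.09, 5.92 and 11.04 CPM in Cirrhosis-PTH. Next by mean CPM came rings of Erbin, an adaptor at cell junctions (3.28), Tmem56, a membrane protein (2.99), Eed (2.92), Bckdhb exons 4 to 8 (2.29), Rfx7, a transcription factor (2.27), Bckdhb exons 2 to 6 (2.14) and Rnf169, a ubiquitin ligase of the DNA damage response (1.96). The Ube3a and Rmdn2 rings overlapped in range, and each of the rings from Erbin to Rnf169 had a range over libraries that overlapped that of the ring next to it in this order.

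Both Bckdhb rings come from the gene of a subunit of the enzyme that breaks down branched-chain amino acids, and they overlap in exons 4 to 6. The ring of exons 2 to 6 had 0.204, 0.766 and 2.07 CPM in Control, 0.548, 1.81 and 12.4 CPM in Cirrhosis and 1.12, 1.9955 and 2.57 CPM in Cirrhosis-PTH. Its Cirrhosis mean was 3.48 CPM and was 1.70 CPM without Cirrhosis 6, the library at 12.4 CPM. The ring of exons 4 to 8 had 0.303, 1.25 and 2.69 CPM in Control, 1.29, 2.65 and 6.09 CPM in Cirrhosis, and 1.75, 2.06 and 2.46 CPM in Cirrhosis-PTH. Against Control, the fitted log2 difference in Cirrhosis was 1.25 ± 0.61 (SE) for exons 2 to 6 and 1.21 ± 0.57 for exons 4 to 8, both at an adjusted p of 0.381 in limma.

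Detection, meaning 1 read or more, was where the sets parted. On average 169 ± 23.5 (SD, n = 6) of the 237 long circRNAs were detected in a Control library, 160 ± 29.5 (n = 6) in Cirrhosis and 160 ± 26.6 (n = 6) in Cirrhosis-PTH. Short circRNAs were detected in numbers of 159 ± 21.4, 165 ± 30.5 and 168 ± 30.5. Within each library, the number of long minus short circRNAs detected was 1 to 23 in Control, above 0 in all 6 libraries. It was -18 to 0 in Cirrhosis, below 0 in 5 of 6, and -29 to 17 in Cirrhosis-PTH, below 0 in 5 of 6. Control and Cirrhosis therefore did not overlap in this measure, while Cirrhosis-PTH overlapped both.

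This pattern depended on circRNAs with a single read and on the definition of long. When detection required 2 reads or more, the same number was -5 to 13 in Control and -20 to 0 in Cirrhosis, and when it required 3 it was -15 to 8 and -24 to 3, so both ranges overlapped. Counted per circRNA, 98 long ones were detected in fewer Cirrhosis than Control libraries and 68 in more, against 82 and 94 short ones. No test is given for it, since the pattern was seen in these same libraries. The total reads behind the CPM were 6579082 ± 3592637 (SD, n = 6) per library in Control and 6609851 ± 1936476 (n = 6) in Cirrhosis, so these groups had means close to each other, against 12149576 ± 9104122 (n = 6) in Cirrhosis-PTH. The reads of long circRNAs themselves were 757.5 ± 238 (n = 6), 1020 ± 152 (n = 6) and 1493 ± 1378 (n = 6) per library. The part of either in the pattern was not tested. At 1 read, Control and Cirrhosis also overlapped under other definitions of long. In percentage points of long minus other circRNAs detected, Control was -0.0876 to 8.85 and Cirrhosis -6.72 to 2.39 from the 75th percentile of span. From 10000 bp they were 0.747 to 8.30 and -8.61 to 2.13, and by exonic length -3.16 to 10.7 and -10.1 to 3.82.

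**Figure D2:**
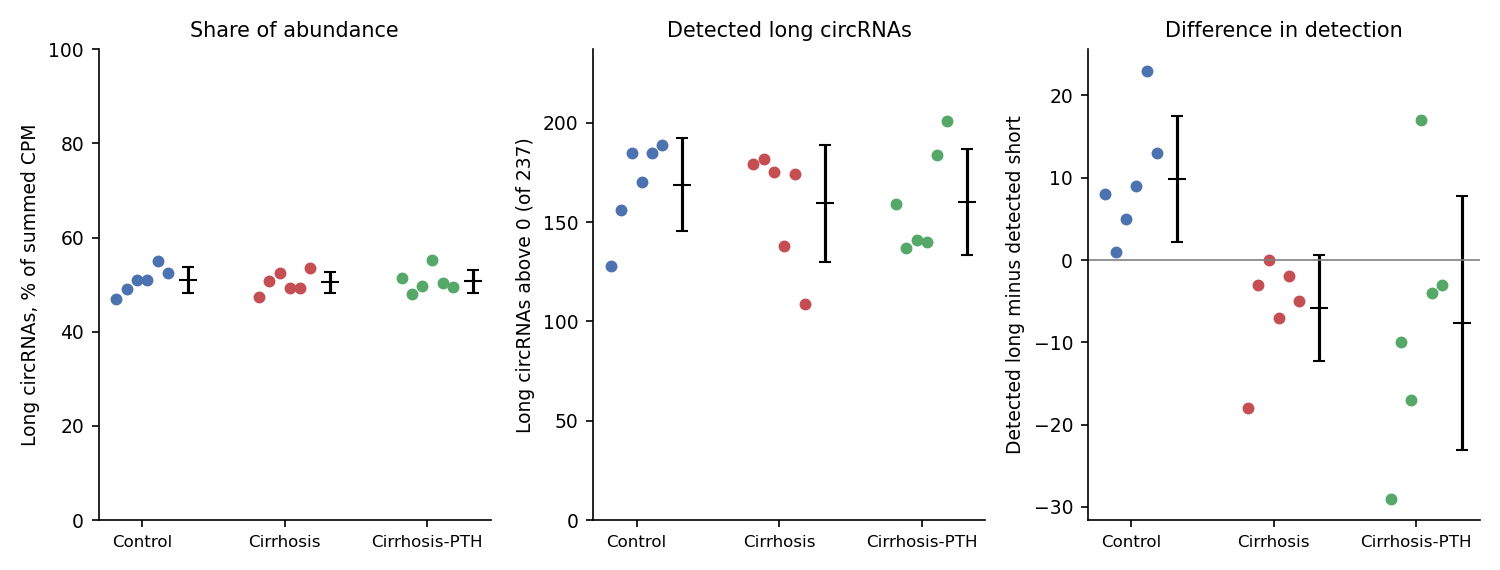
Each point is 1 library (6 per group, bars mean and SD) for the share of summed CPM held by long circRNAs (left, %), the number of long circRNAs detected (middle) and the number of long minus short circRNAs detected (right). The shares of the 3 groups overlap around 50%, while in the right panel the Control points lie between 1 and 23 and the Cirrhosis points between -18 and 0.

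For Cirrhosis against Control, limma found no long circRNA under an adjusted p of 0.05, and the share called over all 474 listed circRNAs was 0%. At an unadjusted p under 0.05, 23 of 237 long circRNAs (9.7%) stood out against 12.2% of all listed ones. Of these, 18 had the higher level in Cirrhosis (background 8.86%) and 5 the lower (background 3.38%). On recovered reads, edgeR called 0 long circRNAs and had 16 at an unadjusted p under 0.05 (background 6.12%). DESeq2 called 0 (background 0.211%) and had 20 (background 8.02%). The split by direction depended on scaling. It was 8 higher (background 3.16%) and 8 lower (background 2.95%) in edgeR, and 8 higher (background 3.38%) and 12 lower (background 4.64%) in DESeq2. In limma it was 3 higher (background 2.11%) and 40 lower (background 14.3%) after each library was centred on the circRNAs found in all 18 libraries, which are 1.27% and 16.9% of the long ones. Centring moved the median log2 difference of all listed circRNAs from 0.12 to -0.46 and that of the long ones from 0.09 to -0.49. Centring shifts all circRNAs of a library alike, so the gap between the 2 medians is the same before and after by construction. Before centring the median was 0.09 in long and 0.20 in short circRNAs. Then 54.0% of the long and 58.2% of the short ones, against 56.1% of all, were higher in Cirrhosis.

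The smallest p belonged to the ring of exons 2 to 4 of Rasa2, whose protein switches off Ras signalling. Its level was 0, 0.750 and 1.15 CPM in Control, 1.81, 2.44 and 4.24 CPM in Cirrhosis and 0.514, 1.15 and 1.93 CPM in Cirrhosis-PTH. Every Cirrhosis library lay above every Control library, which held for this 1 long circRNA and for 0.211% of all listed ones. The reads behind it were 27, 107 and 74. Its log2 difference was 2.28 ± 0.65 (SE), with an adjusted p of 0.109 in limma, and 1.70 with an adjusted p of 0.132 after centring. Without 1 library at a time the log2 difference stayed at 1.86 or more, and the adjusted p in limma ran from 0.0555 to 0.272.

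The longer Rasa2 ring, of exons 2 to 5, had 0.296, 0.482 and 1.73 CPM in Control, 0.242, 1.18 and 1.84 CPM in Cirrhosis and 0.149, 0.474 and 0.701 CPM in Cirrhosis-PTH. These ranges overlapped. It shares the acceptor and exons 2 to 4 with the shorter ring, and its log2 difference for Cirrhosis against Control was 0.54 ± 0.71 (adjusted p 0.818 in limma). Whether the rings differ in their response was not tested. Of the reads of both rings, the shorter one drew 51.9% in Control livers, 69.9% in Cirrhosis and 71.2% in Cirrhosis-PTH.

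Eed, a core subunit of Polycomb repressive complex 2, gave a ring of exons 9 to 11 that was found in all 18 libraries. It had 0.369, 1.19 and 3.26 CPM in Control, 2.86, 4.21 and 8.70 CPM in Cirrhosis and 1.03, 2.27 and 3.54 CPM in Cirrhosis-PTH. A single Control library, Control 6, reached into the Cirrhosis range. The log2 difference was 1.80 ± 0.54 with an adjusted p of 0.119 in limma (1.22 and 0.168 after centring). When only circRNAs with a mean of at least 1 CPM were tested, Eed had an adjusted p of 0.0148 in limma, and its mean over the 12 libraries outside Cirrhosis was 1.87 CPM. The shorter Rasa2 ring had the same adjusted p there, but its mean outside Cirrhosis was 0.932 CPM. It thus passed that filter only through the group where it is high, and this call is no support for its difference.

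The other 6 of the 8 smallest p in this comparison were also higher in Cirrhosis, and had between 1 and 21 reads in Control. Msrb3, a methionine sulfoxide reductase that repairs oxidised protein, had 0, 0.374 and 1.53 CPM in Control, 0.848, 2.03 and 2.95 CPM in Cirrhosis and 0.298, 1.24 and 1.58 CPM in Cirrhosis-PTH (log2 difference 1.87 ± 0.68, adjusted p 0.222 in limma). For Arhgap10 exons 14 to 18, Control had 1 read in all and 0, 0 and 0.152 CPM, against 0.129, 0.424 and 0.553 CPM in Cirrhosis. Rbms1, an RNA-binding protein, and Shq1, an assembly factor of small nucleolar particles, had 2 reads each in Control against 21 and 29 in Cirrhosis. The ring of untranslated exons of Hivep2, a zinc finger transcription factor, had 3 reads in Control and 27 in Cirrhosis. Their log2 differences were 1.62 to 1.77 with an adjusted p of 0.234 in limma for each. In Control these 4 rings were thus at or under 3 reads, too few to give their level there. They were above 0 in 10 or 11 libraries, 5 or 6 of them Cirrhosis. All 4 are thus listed through the group where they are high, and their p-values are no support for a difference. Wac is described with the next comparison.

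**Figure D3:**
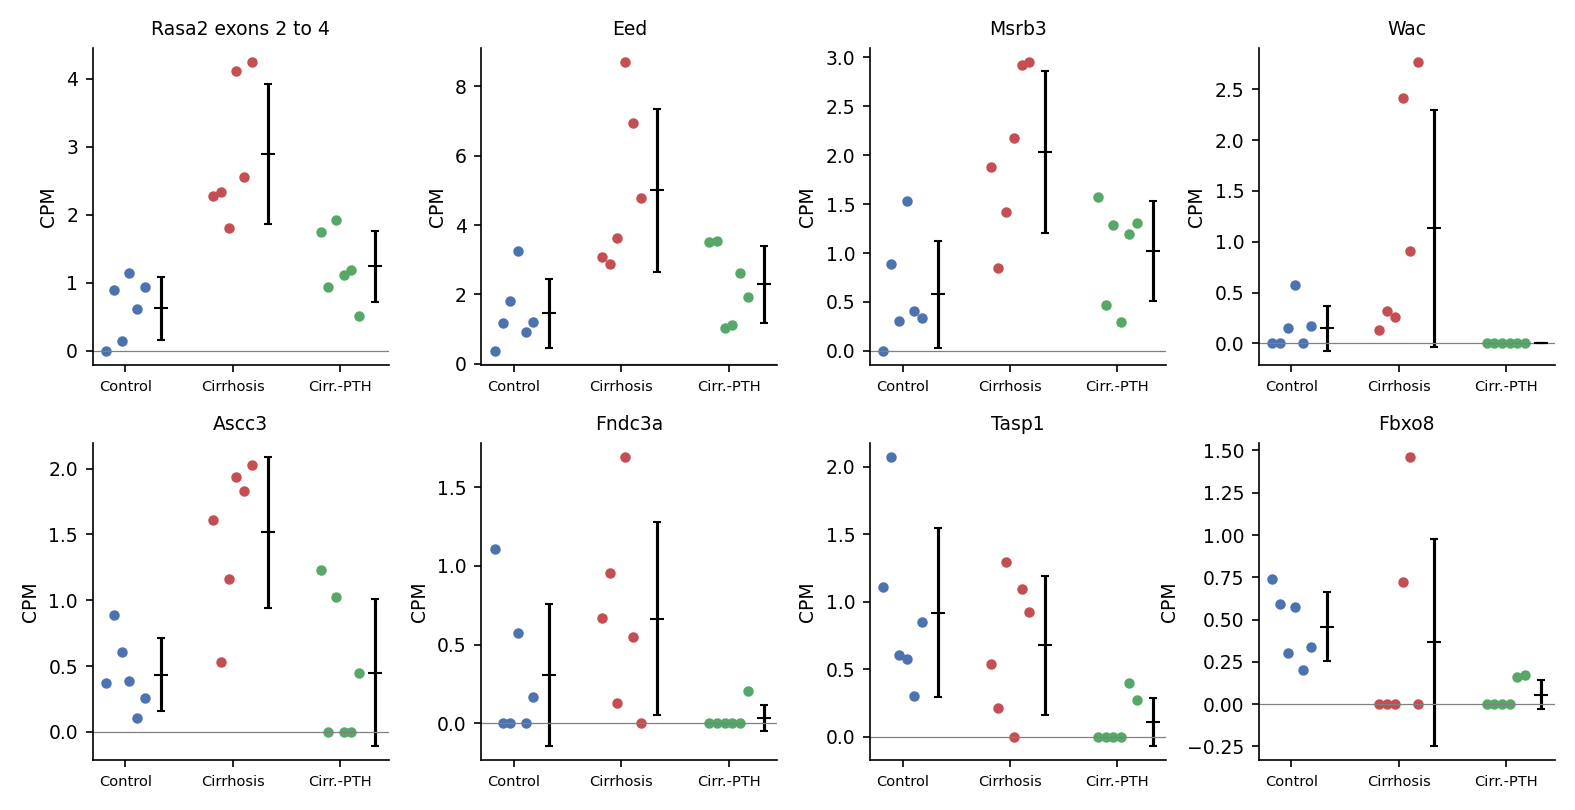
CPM of 8 of the long circRNAs of smallest p, 1 point per library in 3 groups of 6 (Cirr.-PTH is Cirrhosis-PTH), with the mean and SD as bars, which can reach below 0 although no value does. All Cirrhosis points of Rasa2 exons 2 to 4 lie above all Control points, and all Wac points of Cirrhosis-PTH lie at 0.

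For Cirrhosis-PTH against Cirrhosis, again no long circRNA passed limma's test, and the share called over all 474 was 0%. At an unadjusted p under 0.05 there were 18 long circRNAs (7.59%) against 7.17% of all, 13 of them lower with PTH (background 5.49%) and 5 higher (background 1.69%). Both counting tools called 1 long circRNA, Wac, which is 0.211% of all listed circRNAs in edgeR and in DESeq2. At an unadjusted p under 0.05 they had 14 (background 5.27%) and 17 (background 7.81%). The direction of those again turned with scaling. It was 10 higher (background 3.59%) and 4 lower (background 1.69%) in edgeR, and 8 higher (background 3.38%) and 9 lower (background 4.43%) in DESeq2. In limma it was 30 higher (12.7%, background 11%) and 5 lower (2.11%, background 1.69%) after centring, which moved the median of all circRNAs from -0.17 to 0.34. The median of the long circRNAs was -0.17 before and 0.34 after.

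Wac encodes an adaptor that links transcription to histone H2B ubiquitination, and its ring joined exons 4 to 6 over 4549 bp. It had 0, 0.0759 and 0.575 CPM in Control, 0.134, 0.616 and 2.77 CPM in Cirrhosis and 0 CPM in all 6 Cirrhosis-PTH libraries. Cirrhosis had 36 reads, Control 6 and Cirrhosis-PTH 0. Cirrhosis 4 and Cirrhosis 6 had 2.42 and 2.77 CPM, and no other Cirrhosis library was above 0.913 CPM. All Cirrhosis libraries lay above all Cirrhosis-PTH libraries, as for 0.422% of all listed circRNAs. With 3 reads over the group as the floor, Cirrhosis-PTH livers had at least a 22.1-fold lower level than Cirrhosis livers, and at least a 13.2-fold lower one without Cirrhosis-PTH 6, the deepest library. Against Control the bound was 3.69-fold, and 2.13-fold without Control 6.

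Wac was above 0 in 9 libraries, the fewest of any listed circRNA, of which 6 were Cirrhosis and 3 Control. It is thus listed only through the group where it is high. Its lack of overlap, the fold bounds above and the p-values that follow are a description and no support for its difference. The fitted log2 difference of Wac was -2.59 ± 0.67 with an adjusted p of 0.051 in limma. It passed in edgeR (adjusted p 0.0355) and DESeq2 (adjusted p 0.0125), and in limma without the trend option (adjusted p 0.0487). Leaving out single libraries took limma's adjusted p to 0.0313 without Control 6, 0.0184 without Cirrhosis 1, 0.0363 without Cirrhosis 2 and 0.028 without Cirrhosis 3, and to as much as 0.188 without Cirrhosis-PTH 6. After centring the difference was -2.08 with an adjusted p of 0.305 in limma. The adjusted p was 0.198 in limma with only these 2 groups and 0.41 by the exact permutation test. In all, 24 of 32 alternatives called no long circRNA in this comparison. For Cirrhosis against Control the same ring had a log2 difference of 1.84 ± 0.67 (adjusted p 0.222 in limma). The 2 comparisons share the Cirrhosis libraries, so they do not support each other.

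Other rings of small p in this comparison were lower with PTH. The Etv6 ring from 134115220 to 134137417 on chromosome 6, from the gene of an ETS repressor, had 1 end on an annotated exon end. Its level was 0, 0.404 and 0.739 CPM in Control, 0.424, 0.729 and 2.92 CPM in Cirrhosis and 0, 0 and 0.715 CPM in Cirrhosis-PTH, where Cirrhosis-PTH 5 alone reached the Cirrhosis range. Its log2 difference was -2.20 ± 0.73 (adjusted p 0.386 in limma). The ring was above 0 in 12 libraries, 6 of them Cirrhosis, so it is listed through the group where it is high. Its p-value is thus a description and no support for its difference.

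Ascc3 encodes a helicase of DNA repair and ribosome rescue, and its ring joined exons 31 to 36 with 765 bp of coding exon. It had 0.102, 0.377 and 0.888 CPM in Control, 0.530, 1.72 and 2.03 CPM in Cirrhosis and 0, 0.223 and 1.23 CPM in Cirrhosis-PTH (log2 difference -2.05 ± 0.73, adjusted p 0.386 in limma). Acer3, an alkaline ceramidase, had 0.402, 1.28 and 2.42 CPM in Cirrhosis and 0, 0.149 and 0.944 CPM in Cirrhosis-PTH, with 0, 0.436 and 0.910 CPM in Control. In both, the upper Cirrhosis-PTH libraries overlapped the lower Cirrhosis libraries. The Acer3 ring was above 0 in 14 libraries, 6 of them Cirrhosis, so it is listed through the group where it is high.

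Rings of Fndc3a, a membrane protein with fibronectin type III domains, and of Mtmr3, a phosphoinositide phosphatase, were detected in 1 of 6 Cirrhosis-PTH libraries each, and in both cases that library was Cirrhosis-PTH 6, the deepest. In Cirrhosis they had 0, 0.609 and 1.69 CPM and 0.106, 0.545 and 0.731 CPM. They were above 0 in 9 and 11 libraries, 5 and 6 of them Cirrhosis, so both are listed through the group where they are high. The ring of exons 3 to 4 of Mettl9, a histidine methyltransferase, had 0.424, 1.65 and 3.69 CPM in Cirrhosis and 0, 0.420 and 1.37 CPM in Cirrhosis-PTH (log2 difference -1.89 ± 0.71, adjusted p 0.421 in limma).

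In the opposite direction, a ring of the long non-coding RNA gene 9030622O22Rik had 0 reads in all 6 Cirrhosis libraries, 12 reads in 4 Control libraries and 26 reads in 5 Cirrhosis-PTH libraries. By the same floor its level in Cirrhosis was at least 4.02-fold lower than in Control, and in Cirrhosis-PTH it was at least 4.72-fold higher than in Cirrhosis. The second bound was 2.72-fold without Cirrhosis-PTH 6, and the first 3.06-fold without Cirrhosis 2. The fitted log2 differences were -1.46 ± 0.63 (adjusted p 0.313 in limma) and 1.51 ± 0.63 (adjusted p 0.624 in limma). This ring was above 0 in 9 libraries, the fewest of any listed circRNA, so it is listed only through the groups where it is high. Its bounds and p-values are a description and no support for its difference. Both comparisons share the Cirrhosis libraries, so they do not support each other.

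For Cirrhosis-PTH against Control, no long circRNA passed in limma, with 0% called over all 474, and none passed in edgeR or DESeq2. Unadjusted p values under 0.05 numbered 12 (5.06%) against 5.27% of all in limma, 10 in edgeR (background 4.01%) and 14 in DESeq2 (background 5.91%). In limma 2 of these were higher (background 1.48%) and 10 lower (background 3.8%) with CCl4 and PTH than in Control. In edgeR 5 were higher (background 1.9%) and 5 lower (background 2.11%), and in DESeq2 1 was higher (background 0.633%) and 13 lower (background 5.27%). The median log2 difference of the long circRNAs was -0.10 against -0.01 for all listed ones, and 46.4% against 49.8% were higher. Over the 119 listed circRNAs of longest span the median was -0.21, and over the 118 next in span it was 0.02. In the other comparisons the median of those 119 was 0.0042 for Cirrhosis against Control and -0.18 for Cirrhosis-PTH against Cirrhosis.

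Tasp1, a protease that cleaves the histone methyltransferase MLL, gave the smallest p. Its ring had 0.306, 0.728 and 2.07 CPM in Control, 0, 0.729 and 1.29 CPM in Cirrhosis and 0, 0 and 0.397 CPM in Cirrhosis-PTH (log2 difference -2.13 ± 0.73, adjusted p 0.587 in limma). The highest Cirrhosis-PTH library lay above the lowest Control library. The Tasp1 ring was above 0 in 13 libraries, 6 of them Control, so it is listed through the groups where it is high. Its p-value is thus a description and no support for its difference. Fbxo8, an F-box protein, was the 1 long circRNA with no overlap in this comparison (0.422% of all listed circRNAs), with 0.204, 0.458 and 0.739 CPM in Control and 0, 0 and 0.171 CPM in Cirrhosis-PTH. Its log2 difference was -1.63 ± 0.67 (adjusted p 0.688 in limma), on 15 and 7 reads. The Fbxo8 ring was above 0 in 10 libraries, 6 of them Control, so it is listed through the group where it is high. Its lack of overlap and its p-value are thus a description and no support for its difference.

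The ring at chr11:16687937-16699485 was in no annotated gene. It had 0.510, 1.31 and 2.12 CPM in Control, 0.129, 0.348 and 0.913 CPM in Cirrhosis and 0, 0.117 and 1.58 CPM in Cirrhosis-PTH, from 49, 14 and 17 reads. Its log2 difference was -1.85 ± 0.73 for Cirrhosis-PTH against Control (adjusted p 0.688 in limma) and -1.51 ± 0.73 for Cirrhosis against Control (adjusted p 0.381 in limma). Rings of Dym, a Golgi protein, and Rbbp4, a histone-binding subunit of several chromatin complexes, were each found in 1 Cirrhosis-PTH library and in 5 Control libraries. These 2 rings were above 0 in 10 and 9 libraries in all, so they are listed through the groups where they are high.

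Nostrin, which guides endothelial nitric oxide synthase from the membrane, was the 1 ring among these 8 with the higher level in Cirrhosis-PTH. It had 0, 0 and 0.607 CPM in Control, 0, 0.642 and 1.29 CPM in Cirrhosis and 0.171, 0.534 and 1.43 CPM in Cirrhosis-PTH (log2 difference 1.71 ± 0.73, adjusted p 0.774 in limma). The Nostrin ring was above 0 in 13 libraries, 6 of them Cirrhosis-PTH. It is thus listed through the groups where it is high, and its p-value is no support for a difference. The Mug1 and Cfhr3 rings completed the 8. Each was above 0 in 12 libraries, 5 of them Control, so they too are listed through the groups where they are high. Both hosts belong to families of near-identical copies, so their reads may be shared with a related gene.

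**Figure D4:**
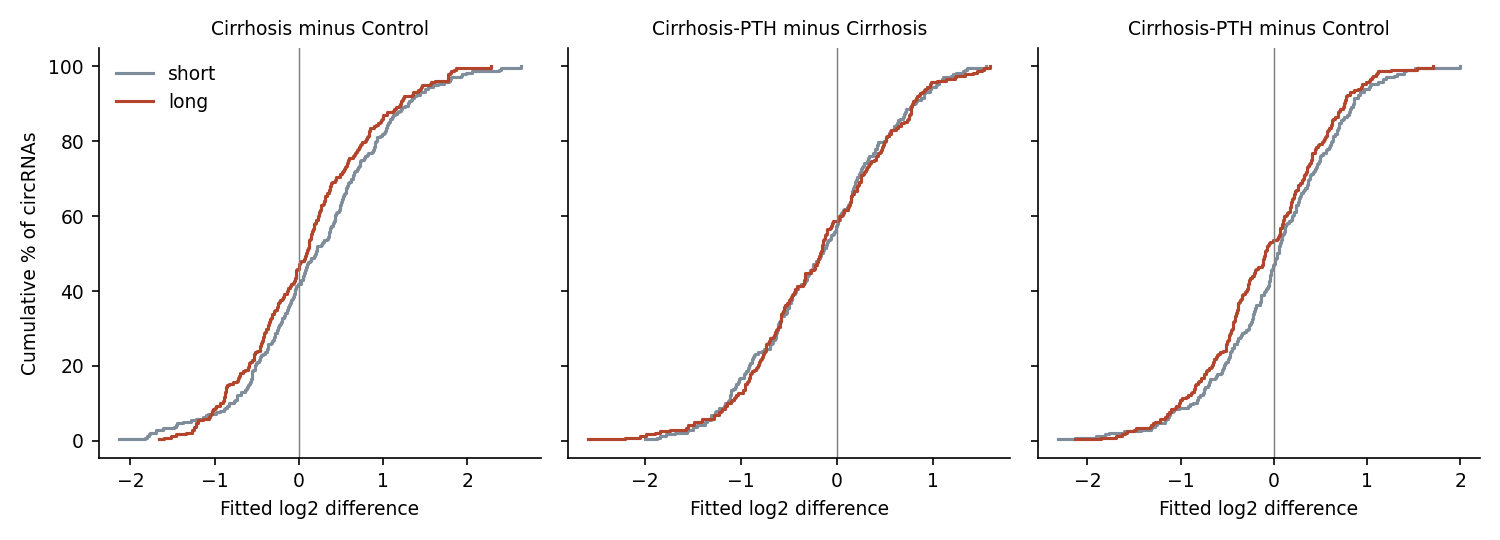
Cumulative share of circRNAs (%) by fitted log2 difference, for the 237 long circRNAs (red) and the 237 short ones (grey) in each of 3 comparisons, with 0 as a vertical line. The medians are 0.09, -0.17 and -0.10 for long circRNAs and 0.20, -0.17 and 0.03 for short ones.

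Several hosts made more than 1 ring. At 22 hosts there were 2 or more long circRNAs (46 in all), with 3 each at Psd3, a guanine nucleotide exchange factor of Arf6, and at Rmdn2. Counting short partners too, 29 pairs at 26 hosts shared an end, 21 the acceptor and 8 the donor. The shorter ring had more reads in 19 pairs and the longer in 10. In 19 of the 29 pairs both rings were long, and in 10 the shorter one fell below the span threshold. Pairs at 1 host share exons and their libraries and are not independent.

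Rmdn2 was the most uneven of the pairs named here. The ring of exons 3 to 5 averaged 6.70 CPM (852 reads) and that of exons 3 to 10, with the same acceptor, 0.514 CPM (57 reads), and the shorter was higher in 18 of 18 libraries. Erbin exons 2 to 4 averaged 3.28 CPM against 0.290 CPM for the longer ring with the same donor, and was higher in 17 libraries. Rasa2 exons 2 to 4 averaged 1.58 CPM against 0.765 CPM for exons 2 to 5 and was higher in 15.

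At other hosts the longer ring led. Rfx7 exons 2 to 4 averaged 2.27 CPM against 0.889 CPM for exons 3 to 4, a short circRNA with the same donor, and was higher in 17 libraries. Mark3, a kinase of microtubule-associated proteins, averaged 1.24 CPM for exons 2 to 5 and 0.615 CPM for exons 2 to 3, with the longer ring higher in 16 libraries. Mettl9 exons 2 to 4 averaged 1.48 CPM and exons 3 to 4 averaged 0.992 CPM, with the longer ring higher in 12 libraries, lower in 4 and equal in 2.

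At Man1a, the gene of a Golgi mannosidase that trims N-glycans, the share of reads was uneven between groups, which was not tested. Of the reads of the pair, the ring of exons 3 to 5 drew 40.6% in Control livers, 73.7% in Cirrhosis and 80.5% in Cirrhosis-PTH, on 60 and 32 reads for the shorter and longer rings over all libraries. The longer ring, of exons 3 to 6, had 0, 0.280 and 2.22 CPM in Control, 0, 0 and 0.725 CPM in Cirrhosis and 0, 0 and 0.318 CPM in Cirrhosis-PTH. Its Control mean was 0.647 CPM and was 0.333 CPM without Control 1, so much of that level rests on 1 shallow library. Its log2 difference for Cirrhosis against Control was -1.19 ± 0.65 (adjusted p 0.444 in limma). This longer ring was above 0 in 9 libraries, 5 of them Control, so it is listed only through the group where it is high. Its p-value and the shares of the pair are a description and no support for a difference.

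**Figure D5:**
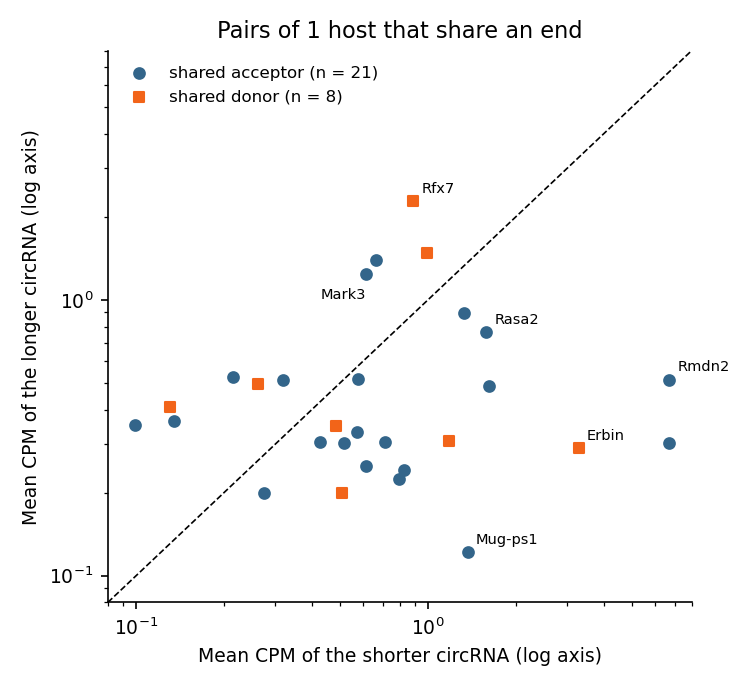
Mean CPM over 18 libraries of the shorter (x axis) and longer (y axis) ring of each of 29 pairs that share an acceptor (circles, 21 pairs) or a donor (squares, 8 pairs), on log axes with the line of equality dashed. In 19 pairs the shorter ring has the higher mean, with Rmdn2, Erbin and the pseudogene Mug-ps1 far below the line, and in 10 the longer has, with Rfx7 and Mark3 above it.

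By host function, 53 long circRNAs of 49 hosts fell in at least 1 of the 12 lists that held any, and 184 in none. No member of any list passed limma's test in any comparison, so the signs below describe fitted differences only. Chromatin regulators held 5 rings (Eed, Kat6b, Kdm4c, Ncor1 and Phf21a) with medians of 0.38 for Cirrhosis against Control (0.12 over all circRNAs) and -0.56 for Cirrhosis-PTH against Cirrhosis (-0.17 over all). Phf21a, a subunit of a histone demethylase complex, had 0, 0.745 and 2.07 CPM in Control, 0, 1.19 and 1.83 CPM in Cirrhosis and 0, 0.112 and 1.05 CPM in Cirrhosis-PTH. Ubiquitin ligases and deubiquitinases held 6 rings with medians of -0.12 and 0.16, and Ube3a made up most of their CPM. Cytoskeleton, adhesion and membrane traffic held 5 rings with medians of 0.82 and -0.49, and RNA processing and translation 5 with 0.30 and -0.19. The 2 rings of DNA replication, repair and cell cycle, Ascc3 and Fancl, had a median of 1.38 and -1.30. Both comparisons of these lists share the Cirrhosis libraries, so opposite signs in them are no support for a reversal with PTH. How the signs of the lists depend on scaling was not tested.

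Among metabolic hosts, the xenobiotic metabolism and transport list held 6 rings (Ces1c, Cyp2c70, Cyp3a25, Fmo5, Nr1h4 and Slco1b2), 5 of them with negative differences for Cirrhosis against Control (median -0.56). Ces1c, a carboxylesterase, had 0.455, 0.819 and 1.43 CPM in Control, 0.365, 1.06 and 2.17 CPM in Cirrhosis and 0, 1.11 and 3.15 CPM in Cirrhosis-PTH. The groups overlapped. Ces1c, Cyp2c70 and Cyp3a25 belong to gene families, and whether their reads are shared with relatives was not tested.

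Amino acid and nitrogen metabolism held 4 rings, 2 of Bckdhb and those of Aass and Dpyd, with 2 positive and 2 negative differences. Lipid and sterol metabolism held 3, Abca1, Gramd1c and Lpin1, with a median of 0.29. Glycogen enzymes gave both rings of the carbohydrate list. The ring of Gbe1, the branching enzyme, had 0, 0.828 and 2.58 CPM in Control, 0.318, 1.12 and 1.83 CPM in Cirrhosis and 0.514, 0.866 and 1.59 CPM in Cirrhosis-PTH. That of Gys2, the liver glycogen synthase, had 0, 0.380 and 1.34 CPM in Control, 0, 0.0670 and 3.14 CPM in Cirrhosis and 0, 0.0373 and 0.411 CPM in Cirrhosis-PTH.

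Secreted plasma proteins held 4 rings (Hc, Kng2, Mug1 and Mug2). All 4 had negative differences for Cirrhosis-PTH against Cirrhosis (median -0.67 against -0.17 over all) and against Control (median -0.58 against -0.01), and these comparisons share the Cirrhosis-PTH libraries. Their summed CPM was 0.739 to 3.26 in Control, 0.636 to 2.37 in Cirrhosis and 0 to 1.18 in Cirrhosis-PTH, so the groups overlapped. The 11 rings of widely studied circRNA hosts, among them Gigyf2 and Tmem56, had medians of 0.18 and -0.16. No long circRNA came from the list of extracellular matrix genes.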

How the data were processed

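Liver RNA of 18 mice was sequenced after removal of ribosomal RNA, per the labels' protocols, which name no digestion of linear RNA. The authors deposited 1 table of CPM per circRNA and library. The submitters' processing notes name Trim Galore, cutadapt 4.2, HISAT2 2.2.1, Bowtie2, Bowtie 1.3.1, StringTie 2.1.5 and the build GRCm38 without roles. The caller's version and what the CPM is scaled to are not given in the sources used here, nor is strand, which was taken from the host gene. Groups and numbers came from the sample titles.

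Steps of the CPM gave whole reads: all 5886 values above 0 were whole within 0.01 (100%), with 794 to 8431 reads per library and totals behind the CPM of 2706146 to 29164326. A floor of 3 reads was 0.103 to 1.11 CPM per library. Reads carry no molecular identifiers, so floors cover counting error only. Ends were compared with exon ends of GENCODE M21.

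The test was limma 3.58.1 (R 4.3.3, trend option) on log2(CPM + 0.143), the pseudocount being the median of the 18 libraries' smallest values above 0, in 1 model of 18 libraries, 2-sided, with Benjamini-Hochberg adjustment over 474 circRNAs at 0.05. Log2 differences are on this scale and understate changes of low circRNAs. Alternatives on recovered reads used edgeR 4.0.16 (quasi-likelihood, with TMM, trimmed mean of M-values, unless stated) and DESeq2 1.42.0. The scripts were tested on simulated data. Python 3.11.15 and matplotlib 3.10.9 made the other values and figures.

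Named circRNAs were the 8 of smallest p per comparison, the 10 of highest mean CPM, the 8 longest, 3 on each side of the span threshold, those with 0 reads in a group or with no overlap between groups, hosts of 2 or more members, and up to 2 per list. Tcf20, shown for its single exon, lies outside that rule and was chosen after its values were seen. Some that the rule names are given by count only, and the result of 1 list is not reported here. Members and lists were chosen with earlier results of these data known.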

Additional observations from a re-analysis of the deposited data

Results flagged for a closer look

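For 88 named long circRNAs, 264 groups of CPM in 6 libraries were examined, and 12 groups of the share of CPM and of detection. Of these 276 groups, 56 held 1 library whose gap to the nearest other exceeded Dixon's 95% critical value as a share of the group's range, and in all 56 it was the highest CPM. Chance gives about 1 in 20 groups for well-behaved values, and groups with many zeros, as here, meet it more readily.

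In Cirrhosis, Cirrhosis 6 stood apart for Bckdhb exons 2 to 6 (12.4 CPM, the nearest at 2.90), Ttc39c exons 2 to 6 (4.79 CPM, the nearest at 0.848), Gphn exons 2 to 3 (4.43 CPM, the nearest at 0.647), Sec63 exons 2 to 4 (4.24 CPM), Mark3 exons 2 to 5 (3.87 CPM), Gys2 (3.14 CPM), Prkag2 exons 13 to 15 (2.21 CPM) and Abca1 exons 3 to 5 (1.84 CPM). Cirrhosis 5 did so for Tlk1 exons 2 to 3 (4.02 CPM), the Etv6 ring from 134115220 (2.92 CPM), Scp2 exons 13 to 14 (2.37 CPM), Cnot6l exons 2 to 5 (1.28 CPM) and the Lncpint ring from 31166476 (1.10 CPM). Cirrhosis 4 was the one apart for Etv6 exons 2 to 3 (1.45 CPM), Prkag2 exons 2 to 3 (0.967 CPM), Man1a exons 3 to 6 (0.725 CPM) and the Foxp1 ring from 99435216 (0.725 CPM), and Cirrhosis 1 for Dennd1b exons 4 to 9 (0.938 CPM), Gphn exons 2 to 4 (0.804 CPM) and Ptbp3 exons 2 to 5 (0.670 CPM).

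In Control, Control 3 was far above the rest for Gbe1 (2.58 CPM), Sec63 exons 3 to 7 (1.06 CPM), Nostrin (0.607 CPM), Hivep2 (0.303 CPM) and Arhgap10 exons 14 to 18 (0.152 CPM). Control 6 was so for Rasa2 exons 2 to 5 (1.73 CPM), Wac (0.575 CPM) and Etv6 exons 2 to 3 (0.575 CPM). Control 2 was so for the Cfhr3 ring from 139593754 (2.37 CPM), Abca1 exons 3 to 5 and Arhgap32 exons 6 to 10 (2.07 CPM each), Dennd1b exons 4 to 9 and the Foxp1 ring from 99429210 (1.18 CPM each) and Cnot6l exons 2 to 5 (0.592 CPM). Control 1 was so for Man1a exons 3 to 5 and the Lncpint ring from 31139729 (1.11 CPM each) and the longer Erbin ring (0.739 CPM).

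In Cirrhosis-PTH, the deepest library, Cirrhosis-PTH 6, was the one apart for Fndc3a (0.206 CPM), Mtmr3 (0.240 CPM), Dym exons 9 to 13 (0.0686 CPM) and the Cfhr3 ring (0.617 CPM), and in the first 3 the other libraries were all at 0. Cirrhosis-PTH 5 stood out for Tlk1 exons 2 to 3 (5.56 CPM, the nearest at 0.480), Pan3 (1.91 CPM), Mark3 exons 2 to 3 (1.27 CPM), the Foxp1 ring from 99429210 (1.03 CPM) and the Etv6 ring from 134115220 (0.715 CPM). Cirrhosis-PTH 2 stood out for Shq1 (2.12 CPM), Ptbp3 exons 3 to 5 (1.65 CPM), Etv6 exons 2 to 3 (0.708 CPM) and Sec63 exons 3 to 7 (0.236 CPM), and Cirrhosis-PTH 1 for Cyp3a25 and Cnot6l exons 2 to 5 (1.23 CPM each) and Man1a exons 3 to 5 (1.05 CPM). Cirrhosis-PTH 4 did so for Rbbp4 (0.224 CPM) and Arid5b (0.298 CPM), and Cirrhosis-PTH 3 for Psd3 exons 2 to 6 (0.514 CPM).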

How the results depend on the processing

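The 24 log2 differences of smallest p kept their sign in all 735 alternative values, and 10 of these passed the threshold. The passes were those of Wac (8), Eed and the shorter Rasa2 ring. The 24 were picked for small p in these data, and several alternatives leave the estimate unchanged. The shared sign is therefore no support for the differences. For Cirrhosis against Control, 31 of 32 alternatives called 0 long circRNAs, and testing circRNAs with a mean of at least 1 CPM called 2 (Eed, and the shorter Rasa2 ring, which reached that mean only through Cirrhosis). For Cirrhosis-PTH against Cirrhosis, 24 of 32 called 0, edgeR with and without TMM, DESeq2 and limma without the trend option each called 1 (Wac), and leaving out 1 library called 0 to 1. For Cirrhosis-PTH against Control all 32 called 0. Counts at an unadjusted p under 0.05 were 23, 18 and 12 in the 3 comparisons. They became 15 in the first and 7 in the last with circRNAs above 0 in at least 12 libraries, 6, 1 and 0 with a mean of at least 1 CPM, and 43 and 35 in the first 2 with median centring, and ran over 19 to 28, 15 to 22 and 9 to 16 without 1 library. Centring took the median log2 difference of members to -0.49 and 0.34 in the first 2. The share of summed CPM was 24.0%, 23.1% and 23.5% (Control, Cirrhosis, Cirrhosis-PTH) with members at or above the 75th percentile of span and 26.6%, 25.3% and 25.8% at 10000 bp or more, as fewer circRNAs counted, and 50.1% to 51.7%, 49.9% to 51.1% and 49.9% to 51.3% without 1 library. The ratio of mean CPM of long to short circRNAs was 1.03 and became 0.921 and 0.928 at those spans. The detection gap of Control, 4.15 percentage points, was -1.41 from 3 reads. The labels do not say that the replicate numbers pair the mice. Same-numbered libraries correlated at -0.0572 to 0.0817 over 14 pairs, and 1 library correlated best with its own number. With few reads behind most values, such low correlations cannot settle whether mice were paired. A replicate block called 0, 0 and 0, with 21, 17 and 18 at an unadjusted p under 0.05. Depth limits most members: 31.3% of their values were 0 and 12.1% rested on 10 reads or more. Settings on the unadjusted counts and on detection from 2 or 3 reads were chosen after seeing the data.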
